A study of Mus musculus with 150 samples.

Results

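Triml1 and Triml2 are neighbouring mouse genes on chromosome 8 that encode tripartite motif-like proteins, relatives of the TRIM family, of which many members act as ubiquitin ligases. They were followed here across 3 edited genotypes of mouse embryonic stem cells (mESC) through the time in S phase at which their DNA replicated. The members were taken by position: every scored position inside Triml1 (chr8:43129806-43180494) or Triml2 (chr8:43180463-43193884) of the mm10 build, without the one that lies in the stretch deleted near them. That left 10 positions for Triml1 and 2 for Triml2, 12 of the 25880 positions in the chromosome 8 profiles. Both are among the 952 protein-coding genes of the chromosome that held a scored position.

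Cells copy their genome in a fixed order, in which domains rich in active genes tend to replicate early and compact, silent domains late. In embryonic stem cells a few stretches of DNA inside a domain can act on the timing of the whole domain, and such stretches are found by deleting them and measuring the timing again. Zfp42, the next scored protein-coding gene to the right, encodes Rex1, a zinc-finger protein widely used as a marker of pluripotent cells.

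The series measured replication timing by Repli-seq in 150 samples, of which 12 belong to chromosome 8. Cells were given the thymidine analogue BrdU for 2 h, separated by stage into an early and a late fraction of S phase, and BrdU-labelled DNA from 40000 cells per fraction was sequenced, so that each pair of samples gave 1 profile. All 6 profiles come from mESC of the hybrid background cas/129, kept in 2i plus LIF, edited by CRISPR. In such hybrid cells reads can be assigned to either parental allele, and the headers name the alleles svim and cast. The Rex1 genotype (clones D1 and E3) lacks chr8:43302260-43332339, a stretch of 30.08 kb that holds 4750 bp of Zfp42 and its start. The Trim genotype (clones D9 and E9) lacks chr8:43176771-43181949, a stretch of 5.179 kb that holds 3724 bp of Triml1 and 1487 bp of Triml2. The RexTrim genotype (clones D3 and D8) lacks both stretches. Each line is 1 clone, no unedited chromosome 8 profile was analysed here, and no label states which allele was edited. The svim columns were blank at the deleted positions of their own genotype in all 6 clones, and the cast columns held values there except at the single Trim position of RexTrim D8.

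The start of Triml2 lies inside the Trim deletion and that of Zfp42 inside the Rex1 deletion. The Triml1 promoter shown here lies 35.03 kb to the left of the Trim deletion and was kept in every clone. Triml1 is on the minus strand, and the right end of its annotated span, at 43180494, lies inside the Trim deletion. Any Triml1 start at that end is removed by this deletion. The promoters of the 3 genes are shown because they say which of these start sites each edit removed. Each runs from 250 bases before to 50 after the start, 5′ to 3′ on the strand of the gene, as RefSeq gives it for GRCm38.p6, the mm10 assembly. Capitals mark the octamer ATTTGCAT, a sequence that POU factors such as Oct4 bind, and the CCAAT box, on either strand (ATGCAAAT and ATTGG on the other). The Triml1 promoter is chr8:43141437-43141736 on the minus strand, that of Triml2 chr8:43180286-43180585 on the plus strand, and that of Zfp42 chr8:43306960-43307259 on the minus strand.
Triml1: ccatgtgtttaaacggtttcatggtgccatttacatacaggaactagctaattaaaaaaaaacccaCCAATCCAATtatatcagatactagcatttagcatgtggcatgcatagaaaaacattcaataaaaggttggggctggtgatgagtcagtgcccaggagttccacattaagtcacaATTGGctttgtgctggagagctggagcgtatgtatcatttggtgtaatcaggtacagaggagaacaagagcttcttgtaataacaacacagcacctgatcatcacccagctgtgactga
Triml2: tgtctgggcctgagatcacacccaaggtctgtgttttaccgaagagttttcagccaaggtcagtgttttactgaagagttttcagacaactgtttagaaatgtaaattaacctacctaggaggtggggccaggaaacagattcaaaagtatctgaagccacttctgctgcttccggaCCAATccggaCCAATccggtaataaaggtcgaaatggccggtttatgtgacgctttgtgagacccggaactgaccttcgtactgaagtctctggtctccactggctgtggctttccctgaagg
Zfp42: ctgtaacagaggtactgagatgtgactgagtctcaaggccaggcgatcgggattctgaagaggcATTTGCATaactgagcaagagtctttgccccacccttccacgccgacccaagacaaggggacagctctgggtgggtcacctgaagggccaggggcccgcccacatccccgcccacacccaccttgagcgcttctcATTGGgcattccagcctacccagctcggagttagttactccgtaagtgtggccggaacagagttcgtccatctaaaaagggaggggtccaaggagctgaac
The Triml1 promoter held 3 CCAAT boxes, that of Triml2 held 2 and that of Zfp42 held 1. A CCAAT box stood in 37.4% of the 32851 mouse promoters of this length. The octamer was present once in the Zfp42 promoter and in neither Triml promoter, and it stood in 1.74% of all promoters. These motifs were picked after the sequences were read, and a match does not show that a factor binds.

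The deposited value is a replication timing score that is higher where replication is earlier. In 9 of 12 columns each of 4 genes listed as early scored above each of 3 listed as late, and over all columns the early genes lay between 1.08 and 2.98 and the late genes between -3.36 and 2.09. The 6 clones differed little in their spread far from the edits: over 935 genes more than 2 Mb away, the SD of svim minus cast lay between 0.49 and 0.74, with the widest range in Trim D9, down to -5.33. The svim minus cast difference changed slowly along the chromosome. Its correlation was at least 0.9993 between neighbouring positions and 0.73 to 0.82 for positions 150 kb apart. The positions of a gene are therefore not separate measurements, and n counts clones. Read depth is unknown, so the spread between clones sets the precision, and since separate derivation of the clones is not stated, p-values measure only that spread.

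On the svim allele, both Triml genes replicated earliest in the Trim clones, later in the Rex1 clones and latest in the RexTrim clones. The Triml1 svim score was 1.30 in Trim D9 and 1.39 in Trim E9, -0.40 in Rex1 D1 and -0.50 in Rex1 E3, and -2.51 in RexTrim D3 and -2.86 in RexTrim D8. Over all genes the median svim difference of RexTrim minus Rex1 was -0.46. How many genes show the order above in every clone was not counted. Triml2, which loses its start in the Trim deletion, followed the same order on svim, with 1.58 and 1.42 in the Trim clones, -0.23 and -0.48 in the Rex1 clones, and -2.53 and -2.85 in the RexTrim clones. On cast, the scores of both genes stayed above 0 in all 6 clones. For Triml1 the cast scores were 0.48 (Trim D9), 2.05 (Trim E9), 1.34 (Rex1 D1), 2.08 (Rex1 E3), 1.12 (RexTrim D3) and 0.40 (RexTrim D8). For Triml2 they were 0.76, 2.15, 1.87, 2.23, 1.53 and 0.50 in the same order. Both Rex1 clones thus lay above both RexTrim clones on cast, and the Trim clones overlapped both. The median of RexTrim minus Rex1 on cast over all genes was -0.49, so this order was not particular to the Triml genes. The lowest cast scores were those of RexTrim D8 and Trim D9, which share the Trim deletion and differ in the Rex1 deletion. The other clones with the Trim deletion, RexTrim D3 and Trim E9, scored 1.12 and 2.05 on cast at Triml1. The cast column of RexTrim D8 was blank at the Trim position, and whether cast is edited there is not known.

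**Figure D1:**
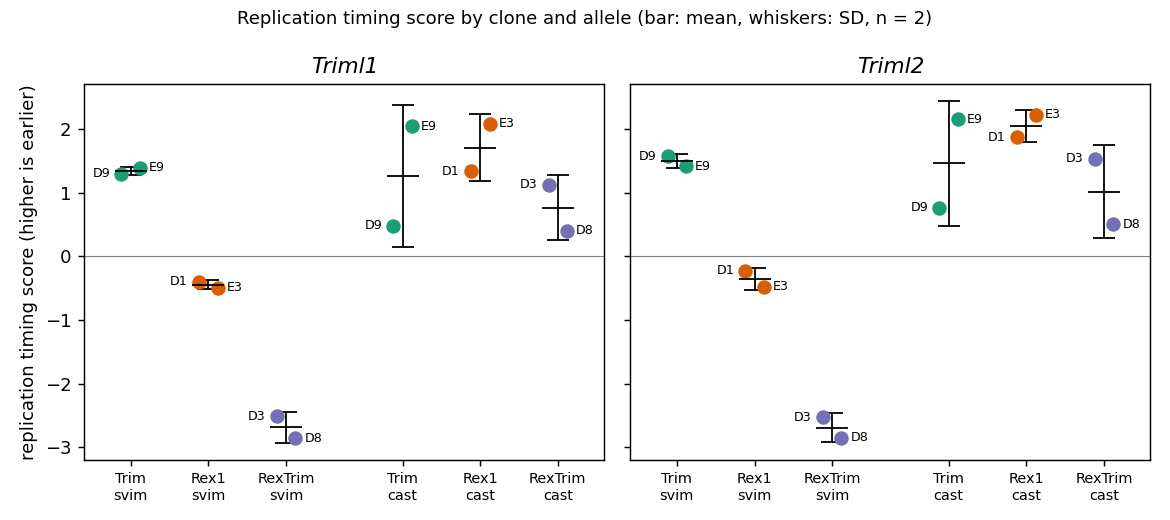
Replication timing score of Triml1 and Triml2 (vertical axis, higher is earlier) for each clone (points, named) by genotype and allele, with the mean (bar) and the SD over 2 clones (whiskers). On svim the Triml1 scores run from 1.30 to 1.39 in the Trim clones down to -2.86 to -2.51 in the RexTrim clones. On cast the Rex1 clones lie above the RexTrim clones, and the Trim clones overlap both.

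In order of the mean, the Triml1 score ran from RexTrim svim (-2.69 ± 0.24, SD, n = 2) over Rex1 svim (-0.45 ± 0.07), RexTrim cast (0.76 ± 0.51), Trim cast (1.26 ± 1.11) and Trim svim (1.34 ± 0.06) to Rex1 cast (1.71 ± 0.52). Neighbours in this order from RexTrim cast upwards lay within 1 SD of each other, whereas the lowest 2 were apart from each other and from the rest. Triml2 gave the same order, from -2.69 ± 0.23 (RexTrim svim) over -0.35 ± 0.17 (Rex1 svim) to 2.05 ± 0.25 (Rex1 cast). Set among all measured genes of the chromosome in the same column, Triml1 on svim had a higher score than 21.5% and 23.9% of genes in the Trim clones. That share was 16.0% and 12.3% in the Rex1 clones and 5.36% and 3.78% in the RexTrim clones.

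The genotypes were compared allele by allele with limma over 956 rows, the 952 genes and 4 regions, with Benjamini-Hochberg adjustment and a threshold of 0.05. The 4 regions were the Triml positions and the 100 kb on the left, on the right and on both sides of the Rex1 deletion. On svim, Triml1 replicated later in the Rex1 than in the Trim clones by a difference in score of -1.79 ± 0.25 (SE, limma adjusted p = 0.00062), and Triml2 by -1.85 ± 0.25 (limma adjusted p = 0.00062). In this comparison 5.75% of all rows were called lower and 5.02% higher. These genotypes differ in both stretches, so it does not isolate the Rex1 deletion. RexTrim minus Trim gave -4.03 ± 0.25 for Triml1 and -4.19 ± 0.25 for Triml2 (limma adjusted p = 1.6e-07 for both). Here 1.26% of all rows were called, all of them lower. They included both Triml genes, the 4 regions, Zfp42 and the nearby Adam26b, Adam26a and Adam34. This share is therefore not a background apart from the locus. The calls of both Triml genes held under all alternatives run for these comparisons.

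RexTrim clones also scored below Rex1 clones on svim at both genes, by a difference of -2.24 ± 0.25 at Triml1 and -2.34 ± 0.25 at Triml2 (limma adjusted p = 0.00029 for both). This comparison had a broad shift behind it: 24.7% of rows were called lower, 5.75% higher, and the median difference over all genes was -0.46. On cast the median difference over all genes was about as large, -0.49, and the Triml differences were -0.95 ± 0.50 and -1.03 ± 0.48 (limma adjusted p = 0.18 and 0.16). Neither Triml gene was called on cast in any of the 3 comparisons of genotypes, in which 1.05% (Rex1 minus Trim), 0% and 0% of rows were called. In the last 2, RexTrim minus Trim and RexTrim minus Rex1, 12 and 307 rows had an unadjusted p under 0.05. Of the other cast differences, Rex1 minus Trim was 0.45 (95% interval -0.66 to 1.56) at Triml1 and 0.59 (-0.47 to 1.65) at Triml2. With columns rescaled on positions far from the edits, the cast differences between RexTrim and Rex1 became -1.69 and -1.77 and were called (limma adjusted p = 0.011 for both), and they were called too without Trim D9 or without Trim E9.

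Subtracting the cast score from the svim score of the same clone removes shifts that both columns of a clone share. At Triml1 this difference was -1.74 in Rex1 D1 and -2.58 in Rex1 E3, -3.64 in RexTrim D3 and -3.26 in RexTrim D8, and 0.82 in Trim D9 and -0.66 in Trim E9. At Triml2 it was -2.10, -2.70, -4.06, -3.36, 0.81 and -0.74 in the same order. All 4 clones without the Rex1 stretch were later on svim, and the Trim clones lay on both sides of 0. Among the 952 genes, 9 had a lower difference than Triml1 in Rex1 D1, 4 in Rex1 E3 and 2 in each RexTrim clone, against 880 in Trim D9 and 64 in Trim E9.

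**Figure D2:**
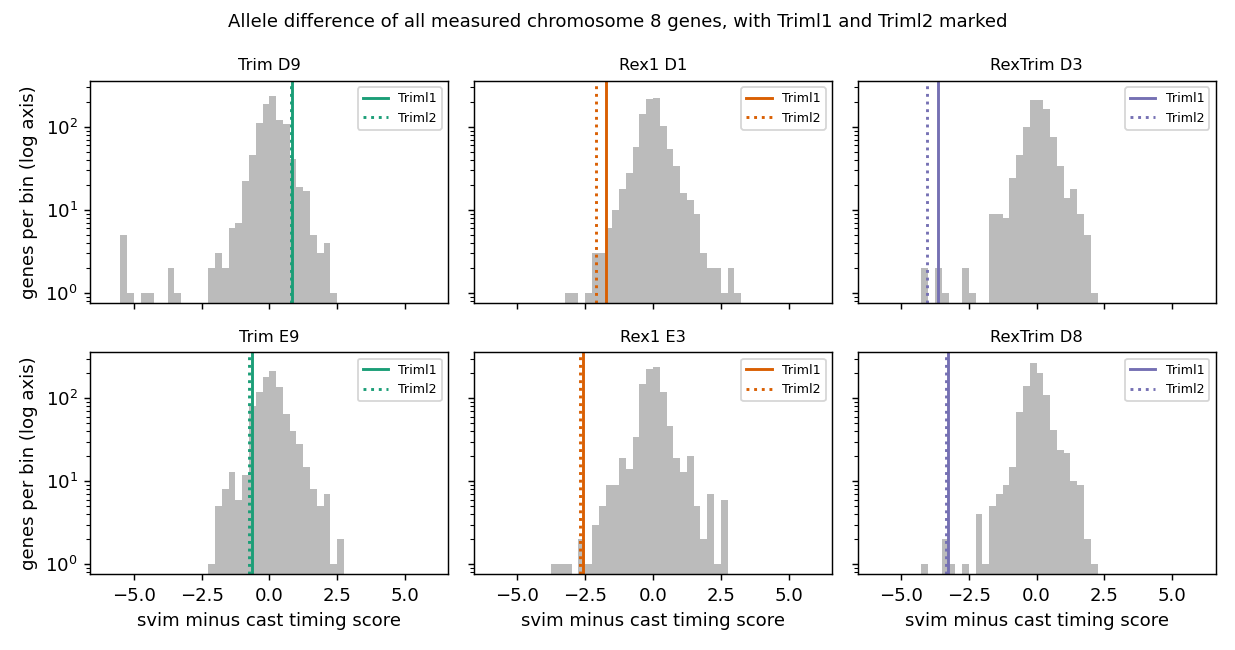
Number of chromosome 8 genes (vertical axis, log scale) by svim minus cast timing score (horizontal axis, bins of 0.25) in each clone, with Triml1 (solid line) and Triml2 (dotted line) marked. Both genes lie in the low tail in the Rex1 and RexTrim clones, at -1.74 and -2.10 in Rex1 D1, and inside the bulk in the Trim clones, at 0.82 and -0.66 for Triml1.

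Against 0, the allele difference in the Rex1 clones was -2.16 ± 0.33 at Triml1 (limma adjusted p = 0.0015) and -2.40 ± 0.34 at Triml2 (limma adjusted p = 0.0012). In this comparison 6.38% of rows were called lower and 5.54% higher, so allele differences were common along the chromosome. In the RexTrim clones it was -3.45 ± 0.33 and -3.71 ± 0.34 (limma adjusted p = 1.1e-04 and 9.8e-05), with 4.39% of rows called lower. In the Trim clones, neither gene was called: the difference was 0.08 (95% interval -0.65 to 0.82) at Triml1 and 0.04 (-0.72 to 0.79) at Triml2, and 11.4% of rows were called in either direction. The call in the Rex1 clones was kept without Rex1 D1 and lost without Rex1 E3, where the difference at Triml1 was -1.74 (limma adjusted p = 0.12) and at Triml2 -2.10 (limma adjusted p = 0.083).

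By their labels the Rex1 and Trim clones differ in both stretches, so Rex1 minus Trim cannot isolate the Rex1 deletion. RexTrim and Trim clones differ in the Rex1 stretch alone. Because an allele difference that all clones carry cancels between genotypes, the difference was also compared with that of the Trim clones. For Rex1 minus Trim it was -2.24 ± 0.47 at Triml1 (limma adjusted p = 0.049) and -2.44 ± 0.48 at Triml2 (limma adjusted p = 0.044), with 1.26% of rows called lower. These calls lay close to the threshold and were lost without any one of Rex1 D1, Rex1 E3, RexTrim D3 or RexTrim D8, with limma adjusted p up to 0.72 at Triml1 and 0.56 at Triml2. They were lost as well under quantile normalization, where the differences were -1.80 and -1.86 (limma adjusted p = 0.49 for both), and with windows in place of genes (limma adjusted p = 0.086 and 0.067). That of Triml1 was also lost without the 25 kb beside the deletions and with the clone as a random block (limma adjusted p = 0.067 and 0.069). The call was kept in 4 of 12 alternatives at Triml1 and in 5 of 11 at Triml2. For RexTrim minus Trim the values were -3.53 ± 0.47 and -3.74 ± 0.48 (limma adjusted p = 0.0015 and 0.0013), with 1.26% of rows called lower, and these calls were lost without RexTrim D3 and under quantile normalization. RexTrim minus Rex1 was not called at either gene: -1.29 (95% interval -2.33 to -0.25) at Triml1 and -1.31 (-2.37 to -0.24) at Triml2, limma adjusted p = 0.80 and 0.81. No row was called in that comparison, in which 49 rows had an unadjusted p under 0.05. The rows called lower for Rex1 minus Trim and for RexTrim minus Trim also included the 4 regions, Zfp42, Adam26b, Adam26a and Adam34.

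**Figure D3:**
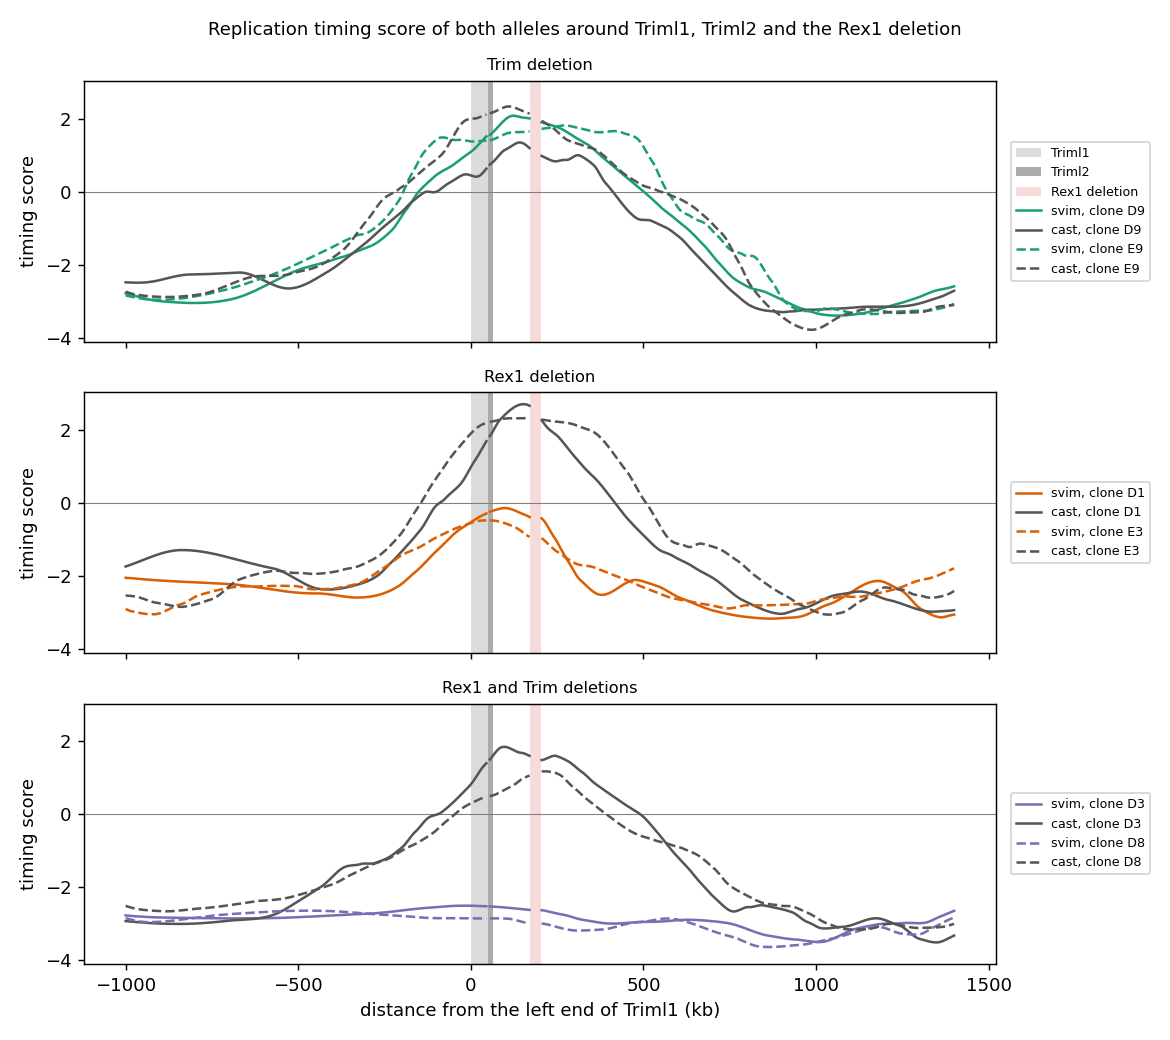
Replication timing score (vertical axis) against distance from the left end of Triml1 in kb (horizontal axis) for both clones of each genotype, svim in colour and cast in grey, with positions inside the deletions left out. Shaded are Triml1, Triml2 and the Rex1 deletion, which stays in the Trim clones. The svim curve keeps a peak at or beside Triml1 and Triml2 in the Rex1 clones, up to -0.14 in D1 and -0.47 in E3. It is nearly flat in the RexTrim clones, where its range over the central stretch is 0.49 and 0.56.

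The profiles around the genes showed what was left on svim. Between 500 kb left of Triml1 and 500 kb right of the Rex1 deletion, a stretch chosen after the profiles were seen, the svim score of the Rex1 clones still rose to a peak. Its top was -0.14 in Rex1 D1, at 36.1 kb right of Triml2, and -0.47 in Rex1 E3, inside Triml1, and the range from lowest to highest score was 2.81 and 2.34. In the RexTrim clones the same range was 0.49 and 0.56, and the highest svim score lay left of Triml1. In the Trim clones it was 4.23 and 3.79, and on cast it was between 3.39 and 5.08 in all 6 clones. A clear peak of svim score at or beside the Triml genes was thus present in the Rex1 clones. The RexTrim clones were nearly flat, with only a shallow maximum beside Triml1 in D3. This is a description of 2 clones each, with no test.

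Across the genes themselves the RexTrim svim score was level, changing by -0.02 in D3 and 0.00 in D8 from the first position of Triml1 to the last of Triml2. The other svim scores rose from left to right, by 0.31 in Rex1 D1, 0.07 in Rex1 E3, 0.50 in Trim D9 and 0.04 in Trim E9. Every cast score rose as well, by 0.16 to 0.92. From left to right the allele difference went from -1.51 to -2.13 in Rex1 D1, -2.45 to -2.71 in Rex1 E3, -3.33 to -4.09 in RexTrim D3, -3.16 to -3.36 in RexTrim D8, 0.65 to 0.81 in Trim D9 and -0.62 to -0.74 in Trim E9. Its size was thus larger at the right end in all 6 clones, with and without the Rex1 deletion.

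The Rex1 deletion begins 108.376 kb to the right of Triml2 and 121.766 kb to the right of Triml1, and the question was whether it shifts these genes as much as its own surroundings. The surroundings were the 20 positions within 100 kb on either side of the deletion. Their svim minus cast difference was -2.84 in Rex1 D1 and -3.27 in Rex1 E3, while the mean over the 12 Triml positions was -1.80 and -2.60. The Triml genes thus showed 63.2% and 79.4% of the difference of the surroundings. The part of Zfp42 outside the deletion, 1 position, gave -3.05 and -3.26. In the RexTrim clones the surroundings gave -4.28 (D3) and -3.92 (D8) and the Triml genes -3.71 and -3.27, which is 86.6% and 83.5%. In the Trim clones the surroundings gave 0.82 and -0.26 and the Triml genes 0.82 and -0.67.

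**Figure D4:**
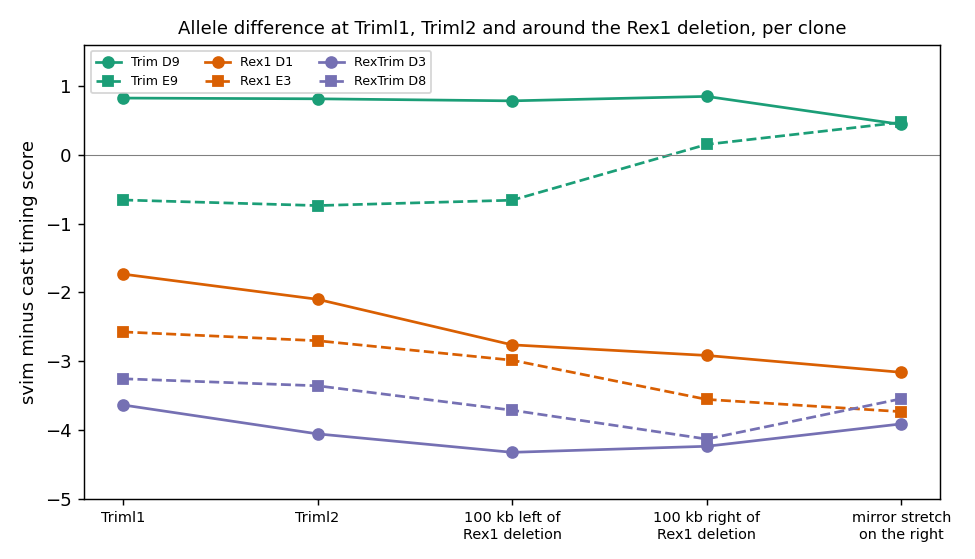
Svim minus cast timing score (vertical axis) at Triml1, Triml2, the 100 kb left and right of the Rex1 deletion and the mirror stretch on its right (horizontal axis, in map order), with 1 line per clone. In both Rex1 clones the difference is smallest at Triml1 (-1.74 and -2.58) and largest in the mirror stretch (-3.16 and -3.73), and the Trim clones stay between -0.74 and 0.85.

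The size of this shortfall was tested within clones against all pairs of 50 kb windows 150 kb apart on the chromosome, 2518 rows. In the Rex1 clones the Triml difference minus that of the surroundings was 0.86 ± 0.23 (95% interval 0.36 to 1.36), above 0 in 2 of 2 clones (1.04 and 0.67). Its unadjusted limma p was 0.0022 and its limma adjusted p 0.10, so it was not called, and 0.199% of rows were. Adjusted p over its alternatives ran from 0.067 to 0.48. In the RexTrim clones it was 0.61 (0.11 to 1.11; limma adjusted p = 0.39), in the Trim clones -0.20 (-0.70 to 0.29; limma adjusted p = 0.83), and no RexTrim row and 0.834% of Trim rows were called; 231 RexTrim rows had an unadjusted p under 0.05. For Rex1 minus Trim it was 1.06 (0.36 to 1.77; limma adjusted p = 0.31), where no row was called and 192 had an unadjusted p under 0.05. The intervals of the Rex1 and RexTrim clones thus lay above 0, on the side of a smaller svim minus cast difference at the Triml genes. The differences did not pass the adjustment over the chromosome, and both alleles enter them.

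Each allele had a part in this shortfall. In the Rex1 clones the svim score of the Triml genes was above that of the surroundings by 0.30 (D1) and 0.51 (E3), and the cast score was below it by a difference of -0.74 and -0.17. In the Trim clones the svim score of the Triml genes was below that of the surroundings, by a difference of -0.52 (D9) and -0.30 (E9). The cast difference there was -0.53 (D9) and 0.12 (E9), and in the RexTrim clones -0.44 (D3) and -0.51 (D8). On svim the RexTrim clones gave 0.14 (D3) and 0.14 (D8). The larger part of the shortfall thus lay on cast in both RexTrim clones and in Rex1 D1, and on svim in Rex1 E3. A lower cast score at the Triml genes was thus not confined to the Rex1 clones. On svim alone, Rex1 minus Trim was -1.80 ± 0.25 at the Triml positions, -2.24 ± 0.27 in the left flank of the Rex1 deletion and -2.99 ± 0.25 in its right flank (limma adjusted p = 0.00062, 0.00026 and 4.1e-05). In the Rex1 clones the svim score of the Triml genes differed from that of the left flank, which lies towards them, by -0.15 (D1) and 0.18 (E3), and from that of the right flank by 0.76 and 0.84. On cast the right flank was the nearer in score: the difference from it was -0.36 (D1) and -0.12 (E3), and from the left flank -1.11 and -0.21.

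A stretch on the other side at the same distance served as a mirror, chosen after the profiles were seen (chr8:43440715-43504793, 12 positions, 108.376 kb right of the deletion). There the svim minus cast difference was -3.16 in Rex1 D1, -3.73 in Rex1 E3, -3.91 in RexTrim D3 and -3.55 in RexTrim D8. In the Rex1 clones the Triml genes thus had a smaller difference than the mirror stretch, by 1.25, which was not called (limma adjusted p = 0.072). For the RexTrim genotype the gap was 0.24 (limma adjusted p = 0.93). The lowest svim minus cast score near the edits lay to the right of the Rex1 deletion in both Rex1 clones, -3.21 at 108 kb (D1) and -3.80 at 103 kb (E3). In RexTrim D3 it was -4.41 and lay 72.3 kb left of the deletion, on the side of the Triml genes, and in RexTrim D8 it was -4.21 and lay 37.7 kb right of it.

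In 50 kb windows, those called lower in svim minus cast formed a run without a gap over the Triml genes in the Rex1 clones, 19 measured windows from 42900001 to 43900000, which reached 229.8 kb left of Triml1 and 567.7 kb right of the Rex1 deletion. In this comparison 7.44% of windows were called lower. With both stretches deleted the run held 22 windows from 42700001 to 43850000, or 429.8 kb left of Triml1, with 5.58% of windows called lower. No such run lay over Triml1 in the Trim clones, where 5.62% of windows were called lower. On svim alone, RexTrim minus Rex1 gave a run of 8 windows from 43000001 to 43450000, which holds both Triml genes and ends 117.7 kb right of the Rex1 deletion, with 1.66% of windows called lower.

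An exact two-sided sign-flip permutation test over the 6 clones, which uses no other gene, gave a mean svim minus cast of -1.87 ± 1.71 (SD) for the Triml genes, below 0 in 5 of 6 clones (exact p = 0.094, adjusted over 3 tests 0.094). The surroundings gave -2.29 ± 2.08, below 0 in 5 of 6 clones, and the Triml genes minus the surroundings 0.42 ± 0.53, above 0 in 5 of 6 clones, with the same exact p and adjusted p. The smallest p of this test is 0.031. It pools the 3 genotypes, and its SD holds the difference between them, as the Trim clones lay at 0.82 and -0.67. It therefore cannot say whether the Rex1 deletion alone shifts the Triml genes, or by less than its surroundings. A comparison of 2 clones with 2 cannot give an exact p below 0.33.

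Among the 17 genes listed as neighbours, those called lower in svim minus cast in the Rex1 clones were the 3 nearest on the right: Adam26b, Adam26a and Adam34, members of the ADAM family of membrane proteins. Of all rows, 6.38% were called lower there. Adam26b, 325.98 kb right of Triml2, had -2.81 (D1) and -3.51 (E3), which is more than either Triml gene in the same clone. Adam26a gave -1.93 and -3.06, and Adam34 -1.08 and -2.09. The same 3 were called in the RexTrim clones, at -3.38, -2.98 and -2.38, where 4.39% of rows were called lower. Another 5 of the 17, Fat1, an atypical cadherin, and Mtnr1a, F11, Klkb1 and Cyp4v3, were called higher in the Rex1, RexTrim and Trim clones alike, where 5.54%, 4.92% and 7.53% of rows were called higher. In the Trim clones 7 of 17 were called higher, these 5 with Adam26a (0.97, limma adjusted p = 0.048) and Tlr3, a receptor for double-stranded RNA (1.06, limma adjusted p = 0.0087). For Rex1 minus Trim, 3 of 17 were called lower (1.26% of rows were) and 0 higher (0.209% of rows were), with a median difference of -0.50 beside -0.10 over all genes. For RexTrim minus Trim it was again 3 lower (1.26% of rows were) and 0 higher (0% of rows were), and the median -0.29 beside -0.04. The nearest measured genes to the left, Frg1 and Asah1, are 1713 and 1732 kb away and were not called in the Rex1 clones (0.03 and 0.13).

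Far from the edits, the genes whose scores over the 12 columns moved most like the Triml mean were Arv1 (Pearson r = 0.78), Arhgef7 (0.76) and Fam89a (0.76). Arv1 and Fam89a overlap and share positions, and the columns of a clone share a library, so these are 3 descriptions with no test. The largest allele differences far from the edits in the Rex1 clones were 2.81 at Dynlrb2, 2.51 at Myom2 and -2.25 at Shcbp1. Those of Shcbp1 and Dynlrb2 were also seen in the Trim clones, -1.77 and -1.98 for Shcbp1 and 2.05 and 2.17 for Dynlrb2, whereas those of the Triml genes were not. Myom2 was called in the Trim clones too, at 1.03 (limma adjusted p = 0.010), and its Rex1 minus Trim difference of 1.48 was called as well (limma adjusted p = 0.048).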

How the data were processed

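The chromosome 8 profiles come from 12 Repli-seq samples, an early and a late fraction for each of 6 clones. The authors deposited 1 table for chromosome 8, with a replication timing score for svim and cast in each clone at positions 5 kb apart; per the labels it was IQR-normalized on mm10, and each of the 12 columns has an interquartile range of 4.60. The submitters' processing notes name Bowtie2, SAMtools and bedtools. For the tool versions, the log base and any smoothing, nothing is stated in the sources at hand, and differences are in units of the score, not fold changes.

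Gene scores are means over the positions of 952 of 1042 protein-coding genes in RefSeq (GRCm38.p6), without the 7 positions inside either deletion. They were fitted with limma 3.58.1 (lmFit, eBayes; R 4.3.3; Python 3.11.15 for the rest), with 1 mean per genotype and Benjamini-Hochberg adjustment over all rows at 0.05, two-sided; intervals are at 95%. The same fit was run on 50 kb windows and on window pairs. The gene fit was also run on simulated scores with independent noise in each gene and column. In the data the columns of a clone and nearby positions are correlated, so that run is not used as support. Clones left out, scaling, flank width and the other alternatives are given in the closing section. Named genes are Triml1, Triml2, Zfp42, the 2 nearest measured genes on each side, a list of 17 neighbours, control genes, the 3 most like the Triml mean and the 3 with the largest difference elsewhere. The members and lists were chosen with earlier results of these data known.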

Additional observations from a re-analysis of the deposited data

Results flagged for a closer look

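The svim minus cast difference of the Rex1 and of the RexTrim clones differed from that of the Trim clones at Triml1, Triml2, Zfp42 and the surroundings of the Rex1 deletion, by the limma contrast of genotypes. For Rex1 minus Trim it was -2.24 at Triml1, -2.44 at Triml2, -3.32 at the position of Zfp42 outside the deletion and -3.34 in the surroundings of the Rex1 deletion. For RexTrim minus Trim it was -3.53 at Triml1, -3.74 at Triml2, -4.30 at Zfp42 and -4.38 in the surroundings. The Rex1 minus Trim calls were kept in 4 of 12 alternatives at Triml1 and in 5 of 11 at Triml2. That contrast differs in both edited stretches and does not isolate the Rex1 deletion. RexTrim minus Rex1 was called at none of these places by limma, with an adjusted p of 0.80 at Triml1 and 0.81 at Triml2 and 49 of 956 rows at an unadjusted p under 0.05. The 2 Trim clones, which both contrasts share, were on opposite sides of 0 at the Triml genes (0.82 and -0.67). No group of this data set is large enough to test for outlying clones.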

How the results depend on the processing

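The alternatives changed no direction of a called Triml value. Of the 138 values of Triml1 under alternatives 121 kept their side of the threshold, 11 lost the call and 6 gained one; for Triml2 it was 111, 9 and 6 of 126. Among the values that were called neither way, 4 of Triml1 and 5 of Triml2 changed sign, all in svim minus cast in the Trim clones, in Rex1 minus Trim on cast or in RexTrim minus Trim on cast. Triml2 has no position left where 25 kb beside the deletions is left out. The shortfall of the Triml genes against the surroundings kept its side of the threshold in 96 of 96, with the mirror stretch, chosen after seeing the data, among them, and 3 of these changed sign.

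For Rex1 minus Trim in svim minus cast, Triml1 was -1.80 under quantile normalization, -2.12 without 25 kb beside the deletions, -2.24 with windows in place of genes and -2.24 with the clone as a random block (limma adjusted p = 0.49, 0.067, 0.086 and 0.069). Triml2 was -1.86 under quantile normalization and -2.44 with windows (limma adjusted p = 0.49 and 0.067). For RexTrim minus Trim under quantile normalization they were -2.98 and -3.27 (limma adjusted p = 0.12). On cast, RexTrim minus Rex1 was -1.69 and -1.77 after rescaling. The cause of these changes was not tested.

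Leaving out 1 clone at a time, with the lone clone assumed to vary like the others, moved Triml1 from -2.58 to -1.74 and Triml2 from -2.70 to -2.10 in the Rex1 clones. For Rex1 minus Trim they moved from -2.98 to -1.50 and from -3.21 to -1.66, for RexTrim minus Trim from -4.27 to -2.79 and from -4.52 to -2.97, and for RexTrim minus Rex1 from -1.71 to -0.87 and from -1.66 to -0.96. The last were called without Trim D9 or Trim E9 (limma adjusted p = 0.041). On cast, Rex1 minus Trim moved from -0.34 to 1.23 and from -0.11 to 1.29, called without Trim E9, and RexTrim minus Rex1 from -1.32 to -0.57 and from -1.55 to -0.52.

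Counts of called genes moved more, leaving out 1 clone: for svim minus cast from 28 to 162 in Rex1 (114 with all clones), 15 to 138 in RexTrim (89), 3 to 27 for Rex1 minus Trim (14), 6 to 26 for RexTrim minus Trim (12) and 0 to 6 for RexTrim minus Rex1 (0). On svim they ran from 39 to 235 for Rex1 minus Trim (103) and 16 to 329 for RexTrim minus Rex1 (291), and on cast from 0 to 136 for Rex1 minus Trim (10), 0 to 16 for RexTrim minus Trim (0) and 0 to 240 for RexTrim minus Rex1 (0). Rescaling gave 322 and 729 genes on svim for Rex1 minus Trim and RexTrim minus Rex1, and 234, 9 and 624 on cast for Rex1 minus Trim, RexTrim minus Trim and RexTrim minus Rex1. Quantile normalization gave 6 for Rex1 minus Trim in svim minus cast, 79 on svim and 1 on cast for RexTrim minus Rex1. Leaving out 25 kb beside the deletions gave 8, and medians over positions gave 5 on cast, both for Rex1 minus Trim. All these counts of genes include the 4 region rows where they were called. Window pairs called ran from 0 to 8 in Rex1 (5) and 0 to 17 in Trim (21) leaving out 1 clone, were 26 and 10 under quantile normalization, and with pairs 200 kb apart were 49 in Rex1, 4 in RexTrim, 50 in Trim and 4 for Rex1 minus Trim, where leaving out 25 kb gave 2.

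The alleles were paired within clones, but clones could not be paired across genotypes, which share no clone number. With 2 clones a genotype, no unedited profile and unknown depth, only large shifts can be told from the spread between clones.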
